A study of Mus musculus with 24 samples.

Results

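The genes described here are 10 germline genes known to be held silent in body cells by DNA methylation of their promoters: Ddx4, Dazl, Stk31, D1Pas1, Mael, Asz1, Sycp3, Sycp1, Hormad1 and Tex101. They were taken by gene symbol, and each of the 10 had 1 row among the 55421 genes of both deposited tables. Whole mouse embryos and yolk sacs of the C57BL/6 strain were profiled by mRNA sequencing on embryonic day 9.5. In each tissue, a line with a Setd2-null allele and a line with a Setd2 catalytic dead (CD) allele gave wild type (WT), heterozygous (HE) and homozygous (HO) libraries, 2 per group, 24 in all. By their names, the null allele removes SETD2 and the CD allele leaves a protein without its enzymatic activity. Neither the protein nor its activity was measured here, and the labels do not say how either allele was built. The labels do not say whether the 2 replicates of a group came from separate animals or litters, so the p-values measure the spread between these samples only, which may in part be technical.

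SETD2 places trimethylation on a lysine of histone H3 (H3K36me3) along transcribed genes, a mark that de novo DNA methyltransferases can bind. Promoters of many germline genes are CpG-rich and gain DNA methylation around implantation, and in mutants without DNA methylation these genes are among the first to become expressed in body cells. At this stage the embryo also contains a small number of migrating primordial germ cells, the precursors of eggs and sperm, which clear this methylation. DNA methylation was not measured in this study. The genes serve as a readout of RNA alone.

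Setd2 followed the labels in null embryos, at 229 to 232 CPM (counts divided by the library total after TMM scaling, in units of 1e+06 counts) in WT, 157 to 169 in HE and 93.3 to 104 in HO. In CD embryos it lay between 213 and 255 CPM whatever the genotype. In null yolk sacs the libraries labelled WT held no more Setd2 (102 and 114 CPM) than the heterozygotes (114 and 120), against 75.6 and 78.9 in HO and 170 to 194 in all CD yolk sacs, so Setd2 goes against the label WT there, and these are called the libraries labelled WT below. Afp, made by the visceral endoderm of the yolk sac, stood at 4849 to 9587 CPM in the libraries labelled yolk sac and at 0.643 to 68.2 CPM in embryos. Totals were 23414255 to 27674831 counts in embryos and 16400137 to 22113787 in yolk sacs. Sex, read from Xist and Ddx3y, differed between WT and HO in the CD line, with male WT and female HO embryos and female WT and male HO yolk sacs. Sex and genotype therefore cannot be told apart from the WT and HO libraries of that line alone. Of the CD heterozygotes, embryo replicate 1 and yolk sac replicate 1 were female and embryo replicate 2 was male. In the null line, both WT and HO replicate 2 were female and HO replicate 1 was male, in embryos as in yolk sacs. One library, CD HE yolk sac replicate 2, held transcripts of both sexes.

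The promoters show what these genes share outside the expression data, and those of some members are printed. All 10 matched the RefSeq promoter table (GRCm38.p6), in which the 250 bases before the transcription start of each gene could be compared with those of 32851 promoters. Capitals mark CpG dinucleotides, the sites of DNA methylation. D1Pas1 (called in homozygous embryos of both lines), Dazl (called in null homozygous yolk sacs, subject to the filter limit given below) and Asz1 (called in no comparison) are shown, each read 5′ to 3′ on its own strand and ending at the base before the start. The D1Pas1 window is chr1:186967166-186967415 (plus strand), that of Dazl chr17:50293621-50293870 (minus strand) and that of Asz1 chr6:18109062-18109311 (minus strand).
D1Pas1: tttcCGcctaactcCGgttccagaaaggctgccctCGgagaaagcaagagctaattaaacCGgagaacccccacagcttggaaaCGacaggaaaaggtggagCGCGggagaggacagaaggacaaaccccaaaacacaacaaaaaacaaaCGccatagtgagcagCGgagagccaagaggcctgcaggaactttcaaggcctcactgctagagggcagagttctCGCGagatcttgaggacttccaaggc
Dazl: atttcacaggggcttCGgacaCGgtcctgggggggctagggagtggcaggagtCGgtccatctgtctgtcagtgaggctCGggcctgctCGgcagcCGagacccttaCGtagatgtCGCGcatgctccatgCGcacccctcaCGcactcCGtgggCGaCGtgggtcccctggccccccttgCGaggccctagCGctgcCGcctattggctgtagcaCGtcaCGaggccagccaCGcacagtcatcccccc
Asz1: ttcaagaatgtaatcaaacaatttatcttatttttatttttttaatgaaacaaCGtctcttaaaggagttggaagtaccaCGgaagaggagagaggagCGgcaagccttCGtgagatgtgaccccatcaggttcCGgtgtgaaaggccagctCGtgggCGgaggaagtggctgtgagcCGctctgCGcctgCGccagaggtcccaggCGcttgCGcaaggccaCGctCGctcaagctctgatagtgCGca
D1Pas1 held 11 CpG sites, Dazl 20 and Asz1 15. Ddx4 held 31, more than 94.8% of all promoters. Its window (chr13:112652311-112652560, minus strand) is not printed whole because 165 of its bases fall in an exon of another annotation, GENCODE M21. The other members held 18 (Mael), 12 (Sycp3), 14 (Tex101), 19 (Hormad1, at either of 2 starts), 17 (Sycp1) and 21 or 26 (Stk31, at 2 starts). The median of all promoters was 6 CpG sites, with quartiles of 2 and 16, so each of the 10 lay above the median. The member with the fewest sites, D1Pas1, still had more than 64.4% of promoters.

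**Figure D1:**
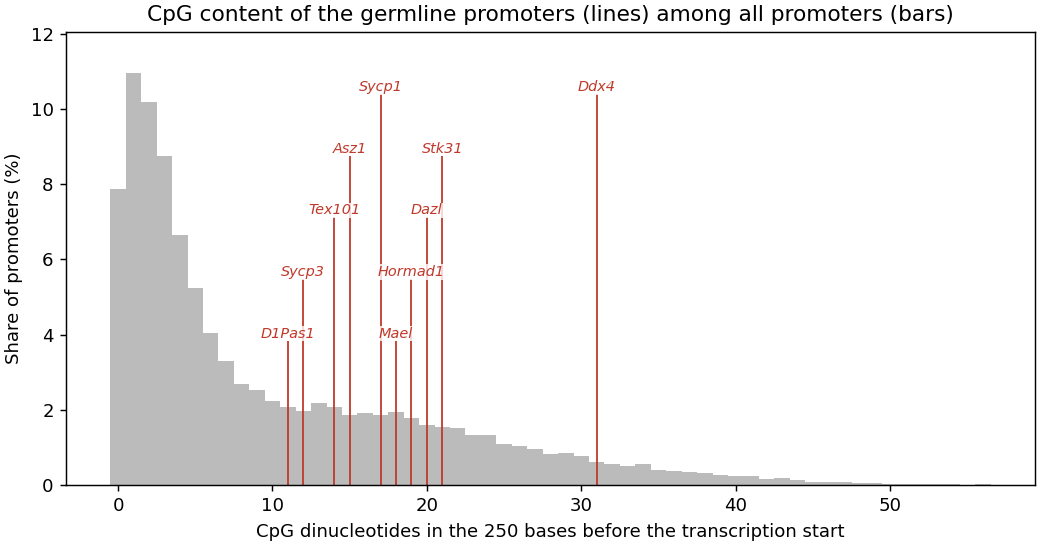
Grey bars show the share of all RefSeq promoters (y axis, percent) with each number of CpG dinucleotides in the 250 bases before the transcription start (x axis), and red lines mark the 10 germline genes at the first annotated start; the heights of the lines carry no value. All 10 lie at 11 or more sites, and Ddx4 stands apart at 31.

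Factors of the PRC1.6 complex, which keeps germline genes silent, bind E-box and E2F letters. The E-box CACGTG, which reads the same on both strands, was found in 6.02% of all promoters, and in those of Ddx4, Mael, Sycp3, Stk31, Hormad1 and Sycp1. The E2F letters GCGGGA, searched on both strands, were found in 16.9% of all promoters and in those of Ddx4, Mael, Sycp3, D1Pas1 and Hormad1. Of all promoters, 1.45% held both motifs, as did those of Ddx4, Mael, Sycp3 and Hormad1. The 30 bases next to the RefSeq start of Ddx4 (chr13:112652311-112652340, minus strand), which also lie in that GENCODE exon, are printed because its E-box, in capitals, begins 29 bases before the start.
Ddx4: gCACGTGcagccgtttaagccgcgtcggcc
Neither motif is therefore shared by all of D1Pas1, Ddx4 and Dazl: D1Pas1 held E2F letters alone, Ddx4 both motifs and Dazl neither. A match is a description of the letters and not a binding site.

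Of the 10 genes, the RNA of Ddx4 and D1Pas1 was higher in every homozygous embryo, of both lines, than in every other embryo, and that of Ddx4 and Dazl was higher in every homozygous yolk sac than in every other yolk sac. Among all genes tested, 11.3% in embryos and 6.78% in yolk sacs had all 4 homozygous libraries above the 8 others. None of the other 7 members showed such an order, and most of them held few reads, with Stk31 (18 to 61 reads in yolk sacs) and Sycp1 (up to 68) as exceptions. By count, 3 members passed the filter on low counts in embryos (Ddx4, Sycp3 and D1Pas1) and 7 in yolk sacs (these with Dazl, Asz1, Stk31 and Sycp1). The filter asked for 2 libraries at 0.394 CPM (embryo) or 0.486 CPM (yolk sac). In yolk sacs Dazl and Sycp3 passed it only through their homozygous libraries and Asz1 only through WT, so that these members had to differ in level, and their p-values are given as a description. D1Pas1 passed in embryos in 1 WT, 2 HE and 4 HO libraries. Members below the filter are given by their counts. A count of 0 allows up to 3 reads, or 0.108 to 0.128 CPM in an embryo library and 0.136 to 0.183 CPM in a yolk sac library, for counting error only.

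**Figure D2:**
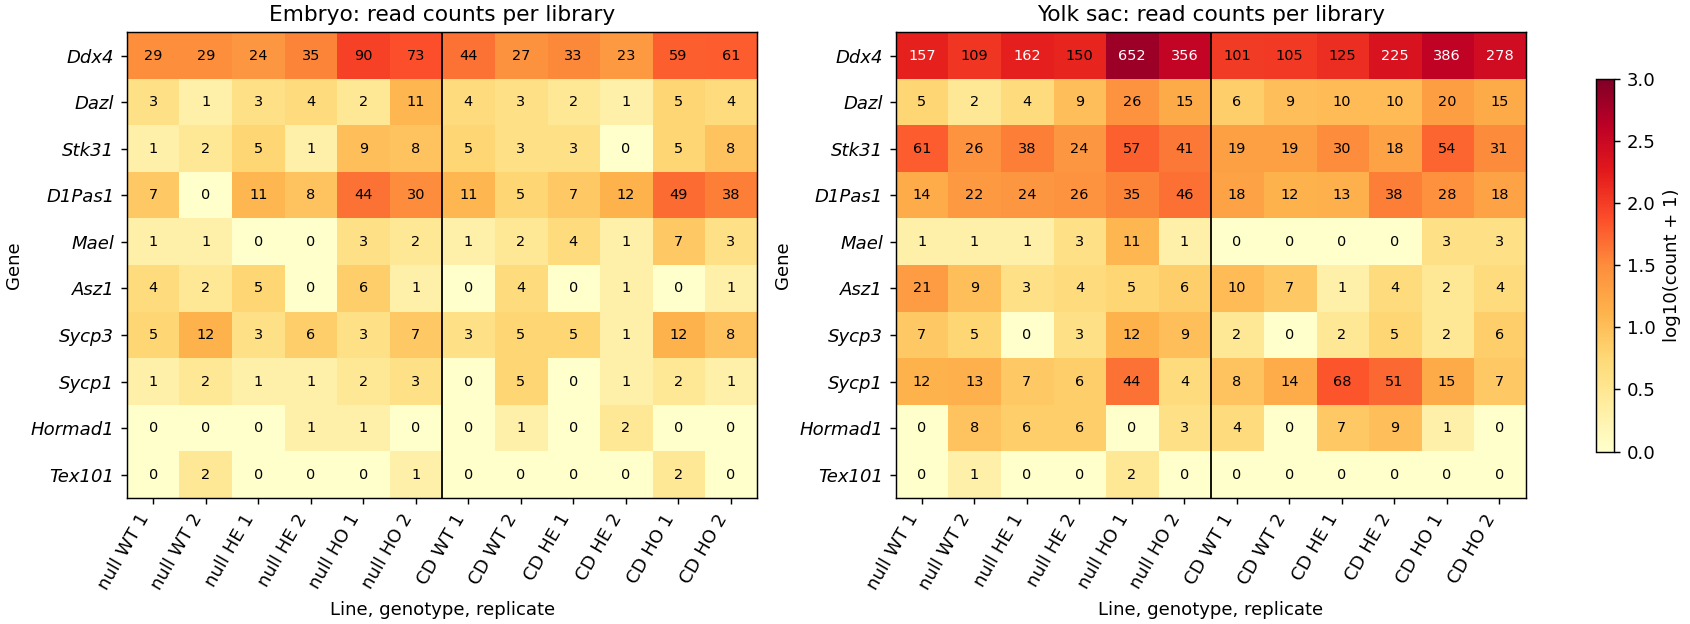
Read counts of the 10 genes (rows) in each of the 12 embryo libraries (left) and 12 yolk sac libraries (right), with colour on a log10(count + 1) scale and a line between the null and the CD line. Ddx4 reaches 652 reads in a null HO yolk sac, D1Pas1 reaches 30 to 49 reads in HO embryos, and Tex101 never exceeds 2.

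Ddx4 (ENSMUSG00000021758, mm10 chromosome 13, 112598333 to 112652475, minus strand) encodes the vasa RNA helicase, a component of the germ granule and of the piRNA pathway, in which small RNAs silence transposons. In embryos of the null line it held 29 and 29 reads in WT, 24 and 35 in HE, and 90 and 73 in HO. In embryos of the CD line it held 44 and 27 reads in WT, 33 and 23 in HE, and 59 and 61 in HO. All 4 homozygous embryos were high (2.26 to 3.47 CPM), and the 8 others lay between 0.827 and 1.77 CPM without overlap. The null homozygotes averaged 3.27 ± 0.289 CPM (SD, n = 2) against 1.11 ± 0.0127 in WT. Ddx4 rose by 1.55 on the log2 scale (SE 0.29, edgeR adjusted p = 0.00181) in null homozygotes, in a comparison in which 16.2% of all tested genes were called higher and 32.7% were called in either direction. In the CD line the averages were 2.44 ± 0.253 and 1.45 ± 0.454 CPM, and the difference was 0.75 (SE 0.29; edgeR adjusted p = 0.104) and missed the threshold, where 6.92% of genes were called higher and 16.1% in either direction. A higher level in bulk RNA can come from more cells that hold the transcript or from more RNA per cell, and these cannot be told apart here.

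In yolk sacs Ddx4 was more abundant in every genotype. It held 157 and 109 reads in the null libraries labelled WT, 162 and 150 in null HE, and 652 and 356 in null HO. CD yolk sacs held 101 and 105 reads in WT, 125 and 225 in HE, and 386 and 278 in HO. Again the 4 homozygous yolk sacs were highest (16.6 to 30.5 CPM). The others lay between 5.04 and 11.6 CPM, and the highest of these was CD HE replicate 2, the library with transcripts of both sexes. Ddx4 rose by 1.88 (SE 0.32, edgeR adjusted p = 0.00693) in null homozygotes, where 2.3% of genes were called higher and 6.27% in either direction, and by 1.77 (SE 0.32, edgeR adjusted p = 0.0173) in CD homozygotes, where 1.27% were called higher and 3.15% in either direction. The null call was lost without the library labelled WT replicate 2 (change 1.64, edgeR adjusted p = 0.0849) or without HO replicate 1 (1.499, edgeR adjusted p = 0.0722). The CD call was lost with a term for sex (1.14, edgeR adjusted p = 0.191), with the 6 libraries of that line alone (edgeR adjusted p = 0.0714) and without WT replicate 1, WT replicate 2 or HO replicate 2 (changes 1.76, 1.77 and 1.81; edgeR adjusted p = 0.0881, 0.078 and 0.0737).

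Among the female libraries of the null line, Ddx4 stood at 3.06 CPM in the homozygous embryo against 1.102 and 1.12 in WT, and at 19.22 CPM in the homozygous yolk sac against 5.55 and 7.93 in the libraries labelled WT. These are single homozygous libraries, and the part of sex in the Ddx4 difference was not tested within them.

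D1Pas1 (ENSMUSG00000039224, mm10 chromosome 1, 186967416 to 186970627, plus strand, a single exon) is a copy of the X-linked helicase gene Ddx3x without introns, expressed in the testis. In null embryos it held 7 and 0 reads in WT, 11 and 8 in HE, and 44 and 30 in HO. In CD embryos it held 11 and 5 reads in WT, 7 and 12 in HE, and 49 and 38 in HO. The 4 homozygous embryos lay between 1.26 and 1.88 CPM and the 8 others at 0.441 CPM or less, so the groups did not overlap. D1Pas1 rose by 3.42 (SE 0.65, edgeR adjusted p = 0.00201) in null and by 2.41 (SE 0.56, edgeR adjusted p = 0.0129) in CD homozygotes. The null change was 2.43 without WT replicate 2, and without WT replicate 1 the remaining WT library was at 0, so that no fold can be given. The CD call was lost with a term for sex (2.90, edgeR adjusted p = 0.0503), without WT replicate 2 (1.97, edgeR adjusted p = 0.0564) and without HO replicate 1 (2.30, edgeR adjusted p = 0.0707), and DESeq2 gave it no adjusted p.

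Reads of Ddx3x itself were examined beside D1Pas1, since it is not known how reads with several matches were counted. The longest run of identical bases that D1Pas1 shares with Ddx3x transcripts is 44 bases, and with those of the Y-linked copy Ddx3y it is 29. D1Pas1 counts were 0 to 0.0349% of the Ddx3x counts in WT and HE embryos and 0.103 to 0.165% in HO embryos. Ddx3x stood at 1135 to 1223 CPM in HO and at 1236 to 1477 CPM in the other embryos. The part of Ddx3x reads in the D1Pas1 difference was not tested. An antisense gene, Gm37912, overlaps 188 bases of the D1Pas1 exon. It held 5, 2, 2 and 1 reads in the 4 homozygous embryos and 0 in the 8 others, and without knowledge of strand in the counting some of these reads could come from D1Pas1.

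In yolk sacs D1Pas1 held 14 and 22 reads in null libraries labelled WT, 24 and 26 in HE and 35 and 46 in HO. The CD line held 18 and 12 reads in WT, 13 and 38 in HE, and 28 and 18 in HO. The differences of 1.16 (SE 0.54, edgeR adjusted p = 0.231) in the null and 0.68 (SE 0.56, edgeR adjusted p = 0.536) in the CD line did not pass. Within each line both homozygous yolk sacs lay above both controls, an order that 29.7% of all tested genes showed in the null and 24.3% in the CD line.

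Dazl (ENSMUSG00000010592, mm10 chromosome 17, 50279395 to 50293636, minus strand) encodes an RNA-binding protein that controls translation in germ cells and is needed for their commitment to gamete formation. In yolk sacs it held 5 and 2 reads in the null libraries labelled WT, 4 and 9 in HE, and 26 and 15 in HO. In the CD line it held 6 and 9 reads in WT, 10 and 10 in HE, and 20 and 15 in HO. The 4 homozygous yolk sacs (0.81 to 1.22 CPM) lay above the 8 others (0.102 to 0.514 CPM) without overlap. The difference for Dazl in null homozygotes was 2.48 (SE 0.67, edgeR adjusted p = 0.0486), close to the threshold of 0.05 and in a gene that the filter kept through its homozygous libraries. With no filter it was 2.47 (edgeR adjusted p = 0.0352). In CD homozygotes the difference was 1.29 (SE 0.61), which missed the threshold (edgeR adjusted p = 0.262). The null call was lost with a term for sex (edgeR adjusted p = 0.113), with DESeq2 (adjusted p = 0.0866), with the 6 null libraries alone (edgeR adjusted p = 0.064) and with the replicate number as a block. It was also lost without any 1 of the 4 libraries compared (differences from 1.975 to 3.24). In embryos Dazl held 1 to 4 reads in WT and HE, 2 and 11 in null HO and 5 and 4 in CD HO, below the filter. When null HO replicate 1 was left out, Dazl entered the embryo test with a difference of 2.51, resting on the 11 reads of HO replicate 2.

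**Figure D3:**
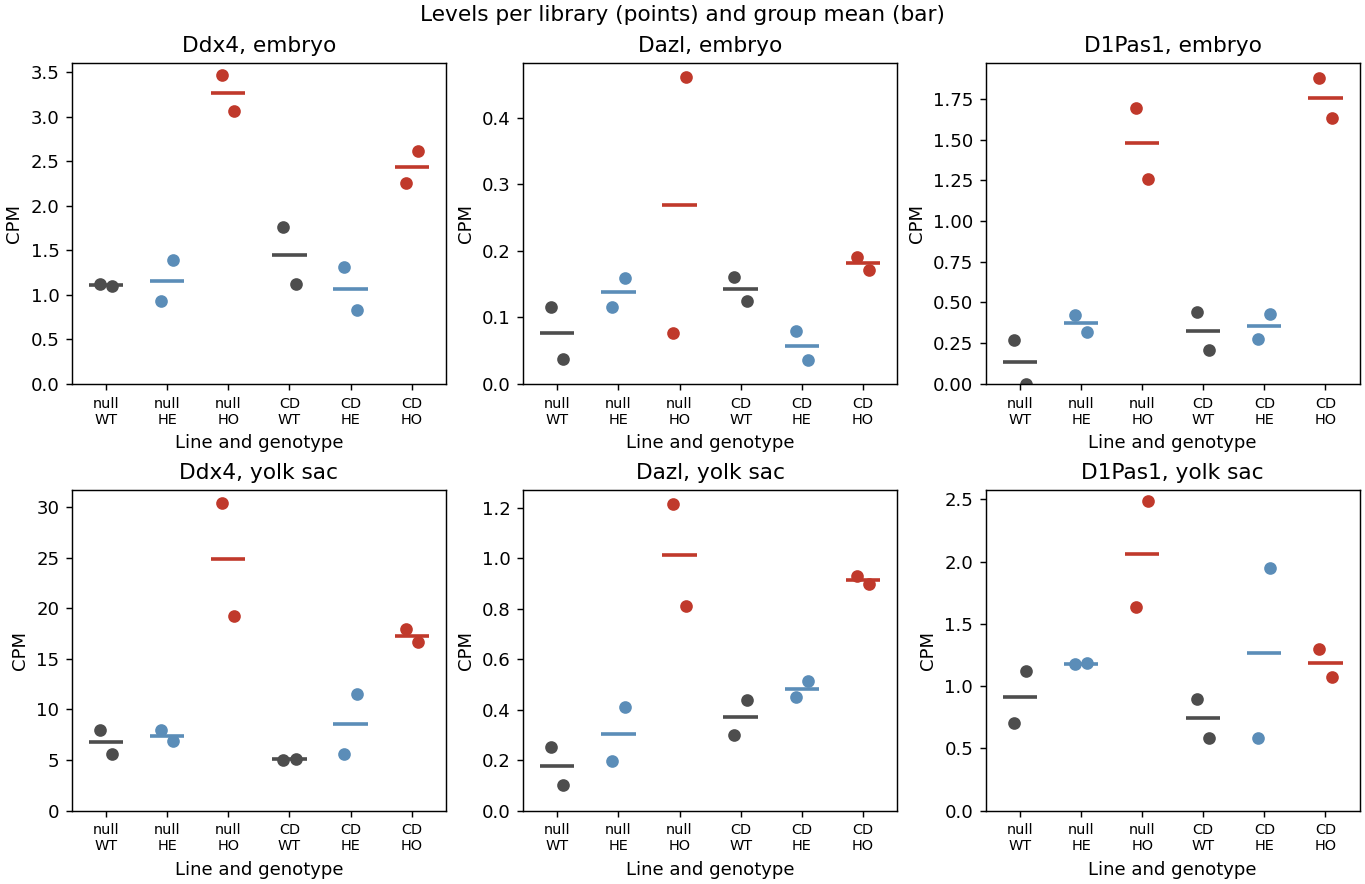
Levels of Ddx4, Dazl and D1Pas1 (columns) in embryos (top) and yolk sacs (bottom) in CPM on the y axis, by line and genotype on the x axis; points are libraries and bars the mean of 2. Homozygous libraries (red) lie above all others for Ddx4 in both tissues, for D1Pas1 in embryos and for Dazl in yolk sacs, and they overlap with others for Dazl in embryos and D1Pas1 in yolk sacs.

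When the homozygous effects of both lines were averaged in the same fit, a comparison added after the data were seen, Ddx4 rose by 1.15 in embryos (SE 0.21, edgeR adjusted p = 0.000933) and by 1.82 in yolk sacs (SE 0.23, edgeR adjusted p = 0.000445). D1Pas1 rose by 2.91 in embryos (SE 0.43, edgeR adjusted p = 0.000245) and the difference for Dazl in yolk sacs, subject to the same filter, was 1.89 (SE 0.45, edgeR adjusted p = 0.0152). In these comparisons 19.7% of the genes tested in embryos and 8.14% of those in yolk sacs were called higher. The Dazl difference no longer passed with a term for sex (edgeR adjusted p = 0.135) and without the null library labelled WT replicate 2, null HO replicate 1 or CD WT replicate 1 (edgeR adjusted p = 0.0728, 0.066 and 0.0567). The D1Pas1 and Ddx4 calls stayed under each of these settings.

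Stk31 (ENSMUSG00000023403, mm10 chromosome 6, 49395604 to 49469501, plus strand) encodes a germ cell protein with a Tudor and a kinase domain. In embryos it held 1 and 2 reads in null WT, 5 and 1 in HE, and 9 and 8 in HO, with 5 and 3 in CD WT, 3 and 0 in HE, and 5 and 8 in HO. The null homozygotes had more reads than their WT, but below the filter. In yolk sacs it held 61 and 26 reads in the null libraries labelled WT, 38 and 24 in HE, and 57 and 41 in HO, with 19 and 19 in CD WT, 30 and 18 in HE, and 54 and 31 in HO. The CD homozygotes lay above their WT and the null homozygotes overlapped with theirs. The differences were 0.15 (SE 0.43, edgeR adjusted p = 0.886) in the null and 1.22 (SE 0.46, edgeR adjusted p = 0.168) in the CD line.

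Asz1 (ENSMUSG00000010796, mm10 chromosome 6, 18050964 to 18109061, minus strand), which anchors the piRNA machinery at mitochondria, stood the other way. In yolk sacs it held 21 and 9 reads in the null libraries labelled WT, 3 and 4 in HE, and 5 and 6 in HO. The CD line held 10 and 7 reads in WT, 1 and 4 in HE, and 2 and 4 in HO. In both lines the libraries labelled WT were highest and HE and HO lay below them. Of all tested genes, 27% in the null and 23.9% in the CD line had both homozygotes below both controls, and 16.5% and 15.4% had both heterozygotes below. Neither homozygous difference passed (-1.43, SE 0.78, edgeR adjusted p = 0.313 in the null line; -1.35, SE 0.88, edgeR adjusted p = 0.42 in the CD line). In embryos Asz1 held 0 to 6 reads in each library. Mael (ENSMUSG00000040629, mm10 chromosome 1, 166201201 to 166238747, minus strand), another piRNA factor of the germ granule, was below the filter in both tissues. Its embryo reads were 1 and 1 in null WT, 0 and 0 in HE, and 3 and 2 in HO, with 1 and 2 in CD WT, 4 and 1 in HE, and 7 and 3 in HO. In yolk sacs Mael held 11 and 1 reads in null HO, 3 and 3 in CD HO, and 0 to 3 in the 8 others.

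The 4 remaining members act later in germ cell life. Sycp3 (ENSMUSG00000020059, mm10 chromosome 10, 88459569 to 88473236, plus strand) and Sycp1 (ENSMUSG00000027855, mm10 chromosome 3, 102818499 to 102936100, minus strand) build the synaptonemal complex, which holds paired chromosomes together in meiosis, in its lateral and central parts. Sycp3 held 1 to 12 reads in embryos and 0 to 12 in yolk sacs. Its embryo difference was -0.68 (SE 0.72, edgeR adjusted p = 0.508) in the null and 1.28 (SE 0.73, edgeR adjusted p = 0.266) in the CD line, and its yolk sac differences were 0.77 (SE 0.97, edgeR adjusted p = 0.7) and 2.01 (SE 1.36, edgeR adjusted p = 0.444). Of its 1264 exon bases, 660 overlap exons of Chpt1 on the other strand, so its reads cannot be told from those of Chpt1 if strand was not used. Sycp1 held 0 to 5 reads in embryos.

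In yolk sacs Sycp1 held 12 and 13 reads in the null libraries labelled WT, 7 and 6 in HE, and 44 and 4 in HO. The CD line held 8 and 14 reads in WT, 68 and 51 in HE, and 15 and 7 in HO. The highest values were thus in CD heterozygotes and in 1 null homozygote, and the homozygous differences were 0.86 (SE 0.73, edgeR adjusted p = 0.54) and 0.06 (SE 0.79, edgeR adjusted p = 0.978). The difference between CD heterozygotes and WT was 2.38 (SE 0.72, edgeR adjusted p = 0.995), and it passed with no filter on low counts (edgeR adjusted p = 0.00737). Of the 50-base stretches of Sycp1 transcripts, 5.47% also occur in other genes. Hormad1 (ENSMUSG00000028109, mm10 chromosome 3, 95559677 to 95587671, plus strand), a protein of the meiotic chromosome axis, held 0 to 2 reads in embryos. In yolk sacs it held 0 and 8 in null libraries labelled WT, 6 and 6 in HE, and 0 and 3 in HO, with 4 and 0 in CD WT, 7 and 9 in HE, and 1 and 0 in HO, and 22.9% of its 50-base stretches have copies elsewhere. Tex101 (ENSMUSG00000062773, mm10 chromosome 7, 24668007 to 24676675, minus strand), a surface glycoprotein of testicular germ cells and sperm, had no reads in 9 of 12 embryos and in 10 of 12 yolk sacs, and at most 2.

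**Figure D4:**
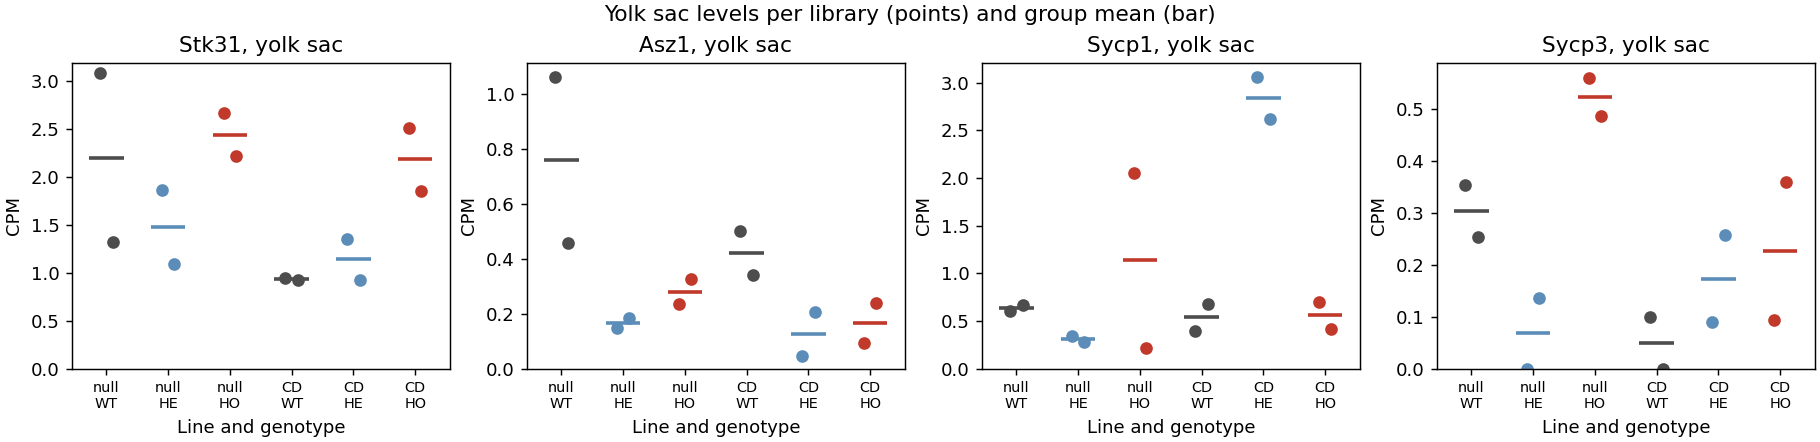
Levels of Stk31, Asz1, Sycp1 and Sycp3 in yolk sacs in CPM on the y axis, by line and genotype on the x axis; points are libraries and bars the mean of 2. Asz1 is highest in the libraries labelled WT of each line, Sycp1 is highest in the 2 CD HE libraries (51 and 68 reads), and none of the 4 has all homozygous libraries above all others.

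**Figure D5:**
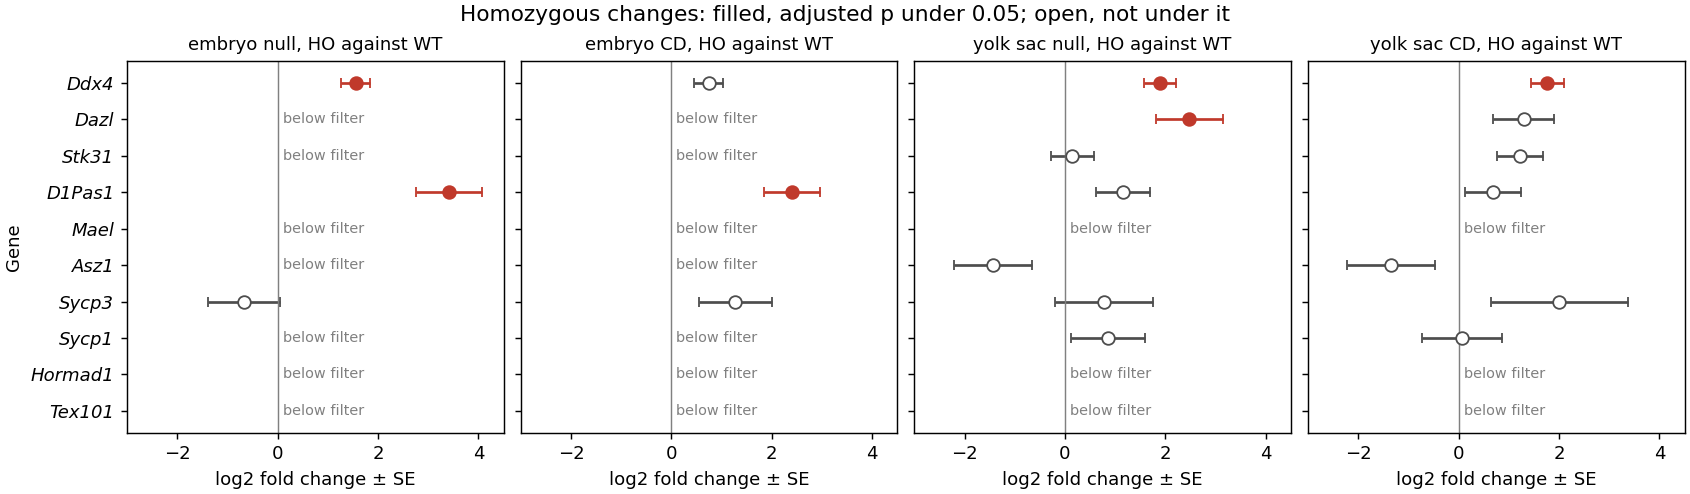
Log2 fold change of HO against WT (x axis, with its standard error) for each gene (y axis) in the 4 comparisons; filled red points had an edgeR adjusted p under 0.05, open points did not, and genes below the filter on low counts have no point. Filled points are Ddx4 and D1Pas1 in null embryos, D1Pas1 in CD embryos, Ddx4 and Dazl in null yolk sacs, and Ddx4 in CD yolk sacs, and all lie to the right of 0. In yolk sacs Dazl and Sycp3 passed the filter only through homozygous libraries and Asz1 only through WT, so their points are a description.

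No member passed the edgeR test between heterozygotes and WT, where 0.0104% (null) and 0.0156% (CD) of embryo genes and 0.0% of yolk sac genes in either line were called in either direction. In null yolk sacs Setd2 goes against the label WT, so the comparison there may not set heterozygotes against WT. No member tested in embryos of either line had an unadjusted edgeR p under 0.05. Those under it in yolk sacs were Asz1 (-2.16) in the null line, and Sycp1 (2.38) and Ddx4 (0.76) in the CD line. The share of all genes at that threshold is not given here, so these are a description, and Asz1 passed the filter only through WT. DESeq2 called none of the members. For D1Pas1 the embryo differences were 1.44 (SE 0.79) in the null and 0.13 (SE 0.68) in the CD line, the first resting on WT reads of 7 and 0.

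The alleles were then set against each other. The homozygous effect of the CD line minus that of the null line was -0.81 for Ddx4 (SE 0.41, edgeR adjusted p = 0.414) and -1.01 for D1Pas1 (SE 0.93, edgeR adjusted p = 0.666) in embryos. In yolk sacs it was -0.12 for Ddx4 (SE 0.45), -1.18 for Dazl (SE 0.91) and -0.48 for D1Pas1 (SE 0.78), each with an edgeR adjusted p of 1. No member passed in either tissue, none had an unadjusted p under 0.05, and DESeq2 called none, while 0.0208% of genes in embryos and 0.0282% in yolk sacs were called. Ddx4 was therefore called in null and not in CD embryos, but the alleles were not shown to differ.

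The homozygous effect in yolk sacs minus that in embryos, from 1 fit of all 24 libraries, was 0.30 for Ddx4 in the null line (SE 0.47, edgeR adjusted p = 0.772) and 1.02 in the CD line (SE 0.47, edgeR adjusted p = 0.271). For D1Pas1 it was -2.27 (SE 0.93, edgeR adjusted p = 0.135) and -1.73 (SE 0.87, edgeR adjusted p = 0.313), and it passed in the null line with no filter on low counts (-2.30, edgeR adjusted p = 0.0462). No member passed, where 10.1% of genes in the null and 2.94% in the CD line were called. The members with an unadjusted edgeR p under 0.05 were D1Pas1 and Stk31 in the null line and Ddx4 in the CD line. The share of all genes at that unadjusted threshold is not given here, so they are named as a description. DESeq2 called none of the members.

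Levels were compared between tissues among libraries labelled WT. By deposited FPKM, which takes gene length into account, all 4 such yolk sacs lay above all 4 embryos for Ddx4, Asz1, Stk31, D1Pas1 and Sycp1, and none of the 10 lay below. Over all genes with a value, 14.7% stood above and 29.7% below in that way. For Ddx4 the range was 1.64 to 2.63 FPKM in yolk sacs labelled WT and 0.365 to 0.587 FPKM in WT embryos. Without the 2 null yolk sacs, whose Setd2 goes against their label, the 2 CD WT yolk sacs lay above the WT embryos for the same 5 genes and Dazl, and below them for Mael and Sycp3. Tissue and deposited table go together, so these levels are a description. In the yolk sacs labelled WT the order by median FPKM was Ddx4 (1.75), Stk31 (0.35), D1Pas1 (0.247), Sycp1 (0.178), Asz1 (0.168), Sycp3 (0.14), Dazl (0.0715), Hormad1 (0.0566), Mael (0.0146) and Tex101 (0). Ddx4 stood above the range of each other gene there, and from Stk31 downwards each gene overlapped with the next. In WT embryos Ddx4 (0.372 FPKM), Sycp3 (0.157) and D1Pas1 (0.074) came first, each overlapping with the next, and no other median passed 0.0411. Summed over the 10 genes, embryos held 5.32 to 6.17 CPM in HO and 1.51 to 2.73 in the others, and yolk sacs 21.6 to 39.4 and 8.08 to 18.5 CPM. Ddx4 made up 41.8% to 77.3% of these sums.

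Markers of primordial germ cells were measured beside the members. The 4 defining markers were low in embryos: Dppa3 at 0 to 0.467 CPM, Nanos3 at 0.125 to 0.735, Prdm14 at 0 to 0.257 and Dnd1 at 0.925 to 2.75. Of these, Dnd1 was lower in null homozygous embryos than in WT (-0.81, edgeR adjusted p = 0.0445). The highest level of Dppa3 was 0.336 CPM in HO and 0.467 in other embryos, that of Nanos3 was 0.257 and 0.735, and that of Prdm14 was 0.257 and 0.193. In yolk sacs Nanos3 had 2 reads in each of 2 homozygous libraries, 1 per line, and none in the other 10. Dppa3 had no reads in 7 of 12 yolk sacs, 3 of them HO, Prdm14 stood at 0.0465 to 0.359 CPM in HO and 0.15 to 0.785 in the others, and Dnd1 at 0.93 to 2.69 and 0.73 to 1.59. The whole list of 11 markers, which includes genes active in many other cells such as Kit, summed to 444 to 484 CPM in HO embryos and 247 to 435 in the others, and to 202 to 285 CPM in HO yolk sacs and 167 to 221 in the others. Of 9 tested, 7 rose and 1 fell in null embryos and 3 rose in CD embryos, where 16.2% and 6.92% of all genes were called higher. Of 8 tested in yolk sacs, 1 rose and 1 fell in the null line and 1 rose in the CD line, where 2.3% and 1.27% of all genes were called higher. The part of primordial germ cells in the results was not tested.

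Markers of other cells also moved with single libraries. Summed trophoblast and decidua markers were 35.1 CPM in null HO embryo replicate 2 against 3.71 to 10.7 in the other embryos, and 90.5 CPM in CD HO yolk sac replicate 1 against 10.4 to 28.9. Ddx4 stood at 3.06 CPM in that embryo and 3.47 in the other null HO embryo, and at 17.9 CPM in that yolk sac and 16.6 in the other CD HO yolk sac. Summed visceral endoderm markers were 736 CPM in CD WT embryo replicate 2 and 7.46 to 91.8 in the other embryos, and all 7 tested members of that list fell in CD homozygous embryos. Without that library the Ddx4 difference in CD embryos was 0.45 (edgeR adjusted p = 0.391). The part of trophoblast and visceral endoderm cells in the results was not tested.

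Other genes of the same pathways were read from lists. Of 17 tested genes of the piRNA pathway and germline RNA control, 4 rose and 1 fell in null embryos, and 5 rose and 1 fell in CD embryos, with list medians of 0.20 and 0.38 beside 0.01 and 0.00 for all genes. Of all genes, 32.7% and 16.1% were called in either direction in these comparisons, so the null count lies near the background. Tdrd1, a Tudor scaffold of the germ granule, rose by 1.24 (SE 0.19, edgeR adjusted p = 0.000417) in null and by 0.80 (SE 0.18, edgeR adjusted p = 0.0125) in CD homozygous embryos. All 4 homozygous embryos (6.35 to 8.19 CPM) lay above the 8 others (2.71 to 4.33 CPM) for Tdrd1. In null embryos Tex15 (0.92; 0.67 in CD embryos, also called) and Tdrd5 (2.28) rose too and Mov10l1, the piRNA helicase, fell by 1.42 on the log2 scale. In CD embryos Tdrkh (0.56) and Tdrd6 (2.34) rose and Rnf17 fell by 1.22. In yolk sacs 1 of 18 rose in the null line, the piRNA factor Gtsf1 (2.34, edgeR adjusted p = 0.0383), and 0 in the CD line, with list medians of 0.34 and 0.54 beside 0.02 and 0.01. Of all genes tested there, 2.3% and 1.27% were called higher, and 1 call is not read as a result about the list.

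Among 17 tested genes of the meiotic chromosome, 5 rose and 3 fell in null embryos and 3 rose and 3 fell in CD embryos, with medians of 0.37 and 0.39, where 32.7% and 16.1% of all genes were called. Msh4, which stabilises crossovers between paired chromosomes, was called higher in each of the 4 comparisons, in yolk sacs subject to the filter limit given below. It held 111 and 116 reads in null HO and 111 and 100 in CD HO embryos, and 5 to 21 in the 8 others. In yolk sacs it held 43 and 40 reads in null HO and 61 and 33 in CD HO, and 0 to 5 in the 8 others. Msh4 rose by 2.93 (SE 0.39, edgeR adjusted p = 0.000185) in null and by 3.05 (SE 0.41, edgeR adjusted p = 0.000492) in CD embryos. In WT and HE yolk sacs it stood at 0.257 CPM or less, below the 0.486 CPM of the filter. It was thus tested there only through its homozygous libraries and had to differ in level, so its yolk sac p-values are a description. The difference for Msh4 in null yolk sacs was 3.51 (SE 0.69, edgeR adjusted p = 0.0126). In CD yolk sacs its WT held 0 and 1 reads, so no fold is given (edgeR adjusted p = 0.00544). Not all genes of the list went this way. Syce2, of the central part of the synaptonemal complex, fell by 2.17 in null and by 1.81 in CD embryos (edgeR adjusted p = 8.28e-07 and 4.5e-06), and the cohesin subunits Rec8 (-1.18 in both) and Stag3 (-0.88 and -1.02) fell too. Smc1b, a cohesin subunit, rose by 1.89 in null embryos. In yolk sacs Msh4 was the 1 called gene of 19 tested in each line, with list medians of 0.46 and 0.49. Since the filter kept Msh4 there through its homozygous libraries, this count is not read as a result about the list. Of all genes tested in yolk sacs, 6.27% in the null and 3.15% in the CD line were called in either direction.

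Of 9 other tested germline genes with promoters known to be methylated in body cells, 2 rose in null embryos and 0 in CD embryos, with medians of 0.96 and 0.45, where 16.2% and 6.92% of all genes were called higher. These were the X-linked homeobox genes Rhox5 (2.76, SE 0.29, edgeR adjusted p = 3.82e-05) and Rhox6. Rhox6 held 0 and 0 reads in null WT and 3 and 48 in null HO embryos, so that it rested on HO replicate 2, the library with the trophoblast markers. In WT and HE embryos Rhox6 stood at 0.333 CPM or less, below the 0.394 CPM of the filter. It was thus tested only through homozygous libraries and had to differ in level, so its call is a description. The count of 2 and the median of 0.96 include Rhox6 and are not read as a result about the list. In yolk sacs 1 of 14 rose in the null line, the testis transcription factor Taf7l (3.01, edgeR adjusted p = 0.0457; 9 and 12 reads in the libraries labelled WT, 140 and 39 in HO), and 0 in the CD line, with medians of 0.14 and -0.06. There, 2.3% and 1.27% of all genes were called higher.

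A list of factors of DNA methylation and germline promoter silencing was also read, and not each of its genes silences (Tet1 is on it). Of 34 tested, 3 rose and 10 fell in null embryos, 0 rose and 6 fell in CD embryos, 2 fell in null yolk sacs and 0 were called in CD yolk sacs, with medians of -0.05, -0.07, 0.06 and 0.03. Of all genes, 32.7%, 16.1%, 6.27% and 3.15% were called in these comparisons, so the counts in embryos lie near the background. Dnmt3b, a de novo DNA methyltransferase, rose by 1.02 (SE 0.18, edgeR adjusted p = 0.00102) in null embryos, as did Rybp of the PRC1 complex (0.74). In CD embryos Dnmt3b was not called higher and the groups overlapped, at 100.5 and 162.9 CPM in WT and 139.5 and 178.4 in HO. Hells, a chromatin remodeller needed for DNA methylation, fell by 0.28 in null and by 0.24 in CD embryos, and the remodeller Atrx fell by 0.40 and 0.44. Smchd1 (-0.20 and -0.25) and Rnf2 (-0.14 and -0.18) also fell in embryos of both lines. In null yolk sacs Tet1 (-0.65) and Ring1 (-0.87) fell. For the maintenance methyltransferase Dnmt1 the embryo differences were 0.13 (edgeR adjusted p = 0.139) and 0.09 (edgeR adjusted p = 0.357), and for the PRC1.6 subunit E2f6 they were -0.04 (edgeR adjusted p = 0.679) and -0.09 (edgeR adjusted p = 0.33); these 2 were chosen for their role after the values were seen.

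The genes with the pattern most like the called members were read over the 12 embryo libraries, as a description, since library and depth are shared. By Pearson correlation of log2 CPM, Ddx4 was most like Lrrc3 (0.955), Gm13163 (0.951) and Ddx18 (0.95), and D1Pas1 was most like Vmn2r1 (0.963), Ak8 (0.961) and Gas7 (0.941).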

How the data were processed

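RNA was measured by mRNA sequencing (KAPA mRNA HyperPrep libraries, Illumina NovaSeq, per the labels' protocols). The submitters' processing notes name fastp 0.22.0, HISAT2 2.2.1, featureCounts 2.0.1, DESeq2 1.32.0 and mm10; no source used here gives the annotation release, the use of strand or the treatment of reads with several matches, so genes with copies or overlapping genes are uncertain. The authors deposited 1 table per tissue holding a raw read count and an FPKM per gene and library. In every case the deposited FPKM equalled the count over gene length and library total (0 values beyond a relative tolerance of 0.001), and FPKM was used only to compare levels between genes or tissues.

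Tests used the deposited counts in edgeR 4.0.16 (R 4.3.3): TMM scaling, filterByExpr (minimum count 10, minimum total 15), a quasi-likelihood F-test over all 12 libraries of a tissue with 1 coefficient per group, and Benjamini-Hochberg adjustment over the 19215 (embryo) or 17755 (yolk sac) genes tested, at a threshold of 0.05. The tissue difference used 1 fit of all 24 libraries (20543 genes). The step was tested on simulated data. Alternatives were DESeq2 size factors, library totals alone, no filter, the DESeq2 1.42.0 Wald test, each library left out, the replicate number as a block, a sex term (from Xist and Ddx3y), the libraries of 1 line alone and, added after the data were seen, the mean effect of both lines. The limits given for a count of 0 cover counting error only. The SEs come from the edgeR fit and include its estimate of the spread between libraries.

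All 10 members are named for homozygotes against WT, by a test or by their counts. For heterozygotes, for the difference between alleles and for that between tissues, values are given for some of the tested members only. Up to 4 called genes of smallest p are named per pathway list and comparison. The 3 genes most correlated with each member called in embryos are also named. The members and lists were chosen with earlier results of these data known. Positions and exon overlaps are from GENCODE M21 (mm10), promoters from RefSeq (GRCm38.p6).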

Additional observations from a re-analysis of the deposited data

How the results depend on the processing

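Ddx4 and D1Pas1 in null homozygous embryos kept direction and call under every alternative run. So did, for both lines averaged, Ddx4 in both tissues and D1Pas1 in embryos. Where other calls were lost, the cause was not tested. Without the filter on low counts, all genes called numbered 43 and 695 for null and CD heterozygous embryos (2 and 3 with it), 46 and 164 for heterozygous yolk sacs (0 and 0), 949 and 122 for CD minus null in embryos and yolk sacs (4 and 5), 2055 and 1662 for null and CD homozygous yolk sacs (1113 and 560) and 1319 for yolk sac minus embryo in the CD line (604), and 1 of the 10 germline genes was called in CD heterozygous yolk sacs (Sycp1) and in yolk sac minus embryo of the null line (D1Pas1). With DESeq2 the counts were 7 and 55 for heterozygous embryos, 3 and 6 for heterozygous yolk sacs, 187 and 13 for CD minus null, 1086 for CD homozygous yolk sacs and 1144 for yolk sac minus embryo in the CD line, with 0 germline genes called in CD homozygous embryos (D1Pas1 had no adjusted p there) and 1 in null homozygous yolk sacs.

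With a sex term, 1112 genes were called in CD homozygous embryos (3087 without it), 612, 89 and 803 in null, CD and averaged homozygous yolk sacs, 0 in null heterozygous embryos, 2 for CD minus null in embryos and 82 for yolk sac minus embryo in the CD line. The germline genes called were then 0 in CD homozygous embryos and CD homozygous yolk sacs and 1 in null and averaged homozygous yolk sacs. The sex term also turned the sign of differences that had no call: Sycp3 in CD and averaged embryos (-0.40 and -0.21), Sycp1 in null, CD and averaged yolk sacs (-0.26, -1.41 and -0.84), Stk31 in null yolk sacs (-0.033), Ddx4 in null heterozygous yolk sacs (-0.17) and Ddx4 in yolk sac minus embryo of the null line (-0.13). With the 6 libraries of a line alone, 1826 and 75 genes were called in null and CD homozygous yolk sacs, with 1 and 0 germline genes. Same-numbered replicates did not deviate together (correlations from -0.0552 to 0.175), so the numbers were not taken as pairs. With the replicate block, 903 genes were called in CD homozygous yolk sacs and 1 germline gene in null homozygous yolk sacs, where Dazl had 2.48 (edgeR adjusted p = 0.0661).

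Leaving out 1 library at a time, with the lone sample of a group assumed to vary like the others, gave 3655 to 6298 genes called in null and 1272 to 2966 in CD homozygous embryos, 165 to 602 in null, 66 to 1074 in CD and 1641 to 3379 in averaged homozygous yolk sacs, 0 to 1 in null and 2 to 849 in CD heterozygous embryos, 0 to 1 in null and 0 to 7 in CD heterozygous yolk sacs, 3 to 1048 and 1 to 28 for CD minus null in embryos and yolk sacs, and 985 to 1899 and 166 to 1374 for yolk sac minus embryo in the null and CD lines. Germline genes called ranged from 0 to 1 in CD homozygous embryos, in null and in CD homozygous yolk sacs and in yolk sac minus embryo of the null line, and from 1 to 2 in averaged yolk sacs. Differences without a call that changed sign ranged, in embryos, from -1.47 to 0.061 (Sycp3, null HO), -0.11 to 0.67 (Sycp3, averaged), -0.26 to 0.32 (Ddx4, null HE) and -0.30 to 0.77 (D1Pas1, CD HE). In yolk sacs they ranged from -1.54 to 1.67 (Sycp1, null HO), -0.37 to 0.49 (Sycp1, CD HO), -0.74 to 0.86 (Sycp1, averaged), -0.34 to 0.88 (Stk31, null HO), -0.10 to 0.42 (Ddx4, null HE), -0.40 to 0.26 (Ddx4, CD minus null) and -0.33 to 1.38 (D1Pas1, CD HE). For yolk sac minus embryo in the null line they ranged from -0.17 to 2.45 (Dazl) and -0.089 to 0.60 (Ddx4). At these depths a library with few reads of a gene cannot show a difference of a few reads. This limits the members below the filter in embryos: Dazl, Mael, Hormad1, Tex101, Asz1, Stk31 and Sycp1.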

Other observations

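Tdrd1 was read in yolk sacs after its values in embryos were seen. It stood at 5.94 and 8.37 CPM in null HO and at 4.97 and 9.03 CPM in CD HO yolk sacs, and at 1.64 to 3.94 CPM in the 8 others, so the groups did not overlap. Neither line passed by itself (0.89, SE 0.39, edgeR adjusted p = 0.199 in the null line; 1.46, SE 0.40, edgeR adjusted p = 0.0676 in the CD line).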
